A study of Mus musculus with 10 samples.

Results

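The capillary blood endothelial cells of postnatal mouse ear skin were described as 1516 cell barcodes of 9016 in 2 droplet libraries, 1 from pups given control IgG and 1 from pups given an Ang2-blocking antibody (Ang2 Ab). A barcode tags the RNA of 1 droplet and a UMI tags 1 captured RNA molecule. The cells were chosen by the UMIs of named genes. A barcode needed at least 500 detected genes, at most 10% mitochondrial UMIs, at least 1 UMI of *Flt1* (VEGFR1), at most 1 of the lymphatic gene *Prox1*, at most 1 over the mural genes *Pdgfrb*, *Kcnj8* and *Vtn*, at most 2 of the fibroblast gene *Col1a2*, fewer than 3 over the arterial genes *Gkn3*, *Sema3g* and *Gja5*, fewer than 3 over the venous genes *Ackr1*, *Selp* and *Sele*, and at least 4 over *Car4*, *Gpihbp1*, *Timp4*, *Aqp7* and *Tcf15*. In the IgG library 3438 of 4685 barcodes passed the quality limits, 1405 of them also passed the limits for blood vascular endothelial cells (BECs), and 708 were capillary. In the Ang2 Ab library the corresponding numbers were 2963 of 4331, 1503 and 808. The remaining 1392 BECs comprised 448 that passed the arterial threshold, 379 that passed the venous threshold and 565 that had neither signature nor 4 UMIs of the capillary genes.

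Capillary endothelial cells line the narrowest blood vessels, where gases, fluid, fatty acids and hormones pass between blood and tissue. They share a basement membrane with pericytes, hold the lipoprotein-processing machinery of the vessel wall, and are the segment from which new blood vessels sprout under VEGF. Angiopoietins act on these cells through the Tie2 receptor and its partner Tie1, and Ang2, encoded by *Angpt2*, is made by the endothelium itself.

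The study asked how Ang2 blocking affects the lymphatic vessels of growing pups, and the 2 libraries held all CD31-sorted endothelial cells, so that blood capillaries were captured alongside. Both libraries came from ear skin of C57Bl/6j pups labelled WT. Pups received 20 mg/kg of mouse IgG1 or of the Ang2 Ab every 3 days from P16 to P21. The stain used before sorting included CD45 and TER-119, markers of leukocytes and erythroid cells. The labels give an age range of P1 to P21 for both libraries and no number of mice, and the title of the Ang2 Ab library also carries the word control, while its treatment label reads Ang2 antibody. There was 1 library per treatment, so the antibody and the library cannot be told apart, no difference between them was tested, and intervals below cover counting error only. Both libraries were labelled male, yet *Xist*, the RNA of the inactive X chromosome, was detected in 59.0% of the IgG and 42.2% of the Ang2 Ab capillary cells and Y-linked genes in 30.2% and 44.1%, with both in 4.94% and 3.84%. Each antibody ratio was therefore also computed among cells with *Xist* alone (383 IgG and 310 Ang2 Ab cells) and among cells with Y-linked UMIs alone (179 and 325 cells). The libraries shared 5 barcode sequences, 0 of them among the capillary cells.

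The libraries held 42337184 UMIs (IgG) and 31720670 UMIs (Ang2 Ab), of which 6408209 and 6706091 came from capillary cells. The median capillary cell had 8317 UMIs and 2982 genes in the IgG library and 7326 UMIs and 2768 genes in the Ang2 Ab library. Mitochondrial UMIs made up a median of 3.35% and 3.67%. Levels are given as CPM, the UMIs of a gene per 1000000 summed UMIs of a class of cells, and UMI counts at one transcript end carry no length factor.

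*Gpihbp1* dominated the choice of cells. This gene encodes the capillary protein that carries lipoprotein lipase to the vessel lumen, and 99.3% of the IgG and 99.4% of the Ang2 Ab capillary cells held at least 1 UMI of it, with a median of 11 and 11.5 UMIs. *Tcf15*, a bHLH transcription factor, was detected in 74.0% and 74.5% of the cells. *Timp4*, an inhibitor of matrix metalloproteinases, was detected in 65.1% and 63.1%, and *Aqp7*, a glycerol channel, in 61.3% and 60.2%. *Car4*, a membrane-bound carbonic anhydrase, was the sparsest, with UMIs in 175 of 708 (24.7%) and 160 of 808 (19.8%) cells. All 5 genes were detected together in 14.0% and 9.78% of cells, and a single one of them in 6.92% and 8.42%. The summed UMIs of the 5 genes had a median of 19 and 18 per cell, with quartiles of 9 and 34 in the IgG and 9 and 32 in the Ang2 Ab library. *Car4*, from which the group takes part of its name, was thus seen in a minority of the single cells.

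*Rgcc*, a cell cycle regulator known as a capillary marker that took no part in the choice, was highest in the chosen cells. It was detected in 584 of 708 IgG and 671 of 808 Ang2 Ab capillary cells. Its level was 889.5 CPM (IgG) and 807 CPM (Ang2 Ab) in capillary cells, against 285 and 212 CPM in the arterial gate, 74.1 and 67.9 CPM in the venous gate, and 6.22 and 7.13 CPM in *Prox1*+ cells. The difference to all other BECs was 2.39 and 2.36 on the log2 scale. With cells of at least 4000 UMIs thinned to 4000 UMIs, *Rgcc* was found in 79.5% and 79.0% of capillary cells. It was found in 1.94% and 2.57% of *Prox1*+ cells, which served as cells that should lack it. In cells with at least 5 UMIs of *Col1a2* it was found in 12.4% and 6.82%. In cells with at least 5 UMIs of the mural genes it was found in 8.14% and 2.655%. *Car4* at that depth was found in 17.1% and 15.3% of capillary cells against 0.168% and 0.151% of *Prox1*+ cells. Its shares were 0.621% and 2.84% in the *Col1a2* cells and 2.33% and 3.54% in the cells with at least 5 UMIs of the mural genes. However, *Car4* was one of the choosing genes, so its contrast to capillary cells was set by the rule. The cells chosen by mural genes held fibroblast markers at 21224 (IgG) and 19947 CPM (Ang2 Ab), against mural markers at 13446 and 16938 CPM. They could also be among the *Col1a2* cells, so these classes are not separate cell types. Outside the capillary cells, whose levels of these genes the rule set, *Tcf15*, *Timp4* and *Aqp7* were each higher in the arterial gate than in the venous gate in both libraries. The genes are on GRCm38 at chr14:79288756-79301645 on the minus strand (*Rgcc*), chr11:84957786-84966044 on the plus strand (*Car4*) and chr15:75596628-75599481 on the plus strand (*Gpihbp1*).

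**Figure D1:**
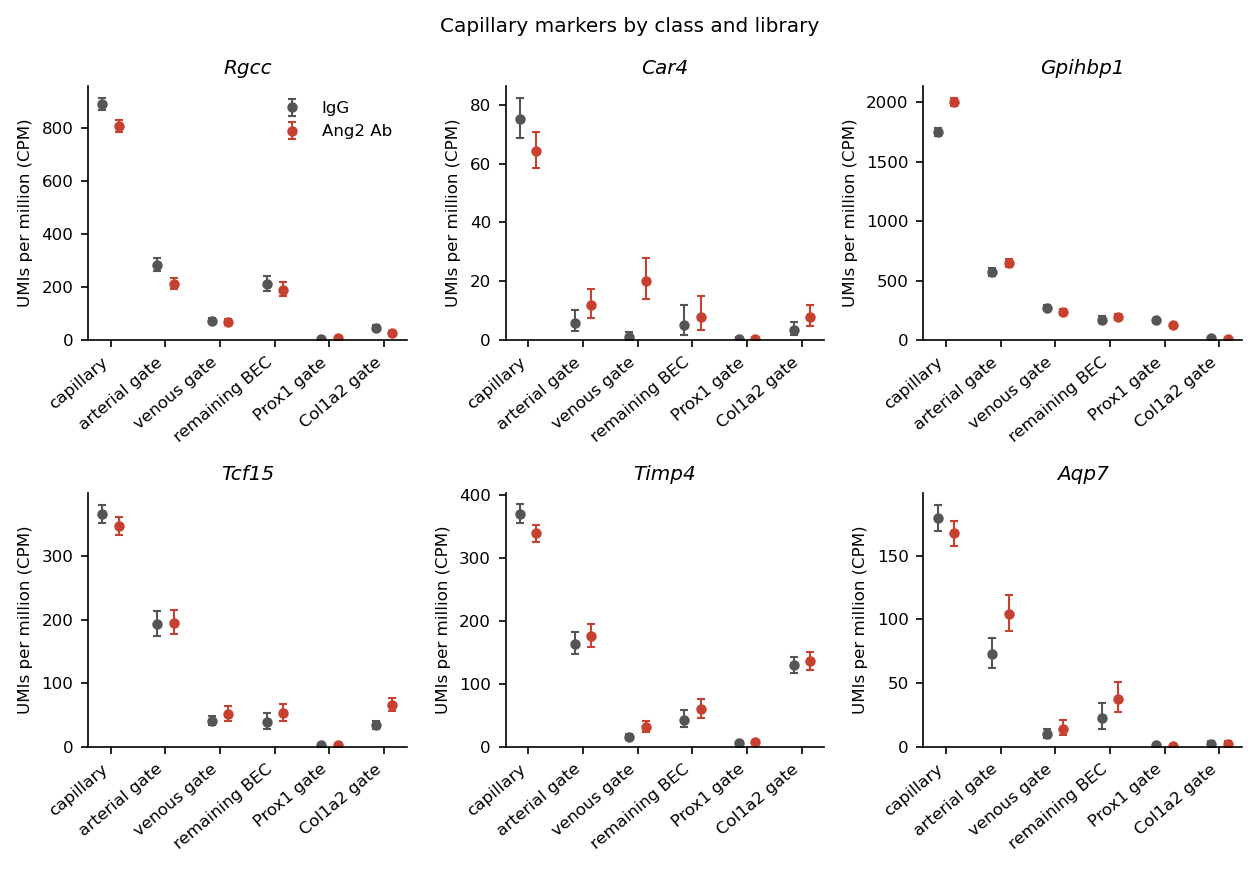
Level of *Rgcc* and of the 5 genes that chose the cells in CPM for 6 classes of cells in the IgG (grey) and Ang2 Ab (red) libraries, with 95% exact Poisson intervals. *Rgcc*, which was not used to choose the cells, stood at 889.5 and 807 CPM in capillary cells and at most 285 CPM in any other class shown.

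The promoters of *Car4* and *Rgcc*, the genes after which these cells are named, are shown as the 250 bases before the RefSeq start on GRCm38.p6, written 5′ to 3′ on the strand of the gene. Capitals mark GGAA, the core bound by ETS factors, or its complement TTCC. The letters were found at 4 positions upstream of *Car4* (chr11:84957504-84957753, plus strand) and at 1 upstream of *Rgcc* (chr14:79301636-79301885, minus strand), and 93.5% of all 32851 promoters in the table hold them within 250 bases. Neither stretch held the E-box CANNTG of bHLH factors, which occurs in 66.2% of the promoters.
Car4: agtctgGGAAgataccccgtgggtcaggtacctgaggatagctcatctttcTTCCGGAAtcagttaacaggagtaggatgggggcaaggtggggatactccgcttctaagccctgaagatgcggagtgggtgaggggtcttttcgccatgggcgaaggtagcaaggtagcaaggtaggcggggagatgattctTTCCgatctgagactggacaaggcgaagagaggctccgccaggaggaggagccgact
Rgcc: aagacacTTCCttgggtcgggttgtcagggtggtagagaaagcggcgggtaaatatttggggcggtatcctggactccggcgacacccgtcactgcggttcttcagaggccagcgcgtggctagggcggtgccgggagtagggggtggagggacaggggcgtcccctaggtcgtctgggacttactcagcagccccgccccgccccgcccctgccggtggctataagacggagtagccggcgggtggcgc

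Capillary cells made up 50.4% of IgG BECs (95% exact binomial interval 47.7 to 53.0%) and 53.8% of Ang2 Ab BECs (51.2 to 56.3%). The share that passed the venous threshold was 16.3% (14.4 to 18.3%) in the IgG and 9.98% (8.51 to 11.6%) in the Ang2 Ab library. These intervals cover the counting of cells within a library only, so whether shares differed with the antibody was not tested. Arterial shares were 15.4% in both. The 565 remaining BECs were shallow, with a median of 1881 and 1962 UMIs. Thinning to 4000 UMIs left out cells with fewer UMIs. These were 192 IgG and 235 Ang2 Ab cells of the remaining BECs, and 123 and 160 capillary cells. After thinning and reapplying the thresholds, the capillary share was 55.4% (52.3 to 58.5%) of 1014 IgG and 60.3% (57.2 to 63.3%) of 1004 Ang2 Ab BECs, and the venous share 15.2% and 9.36%.

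**Figure D2:**
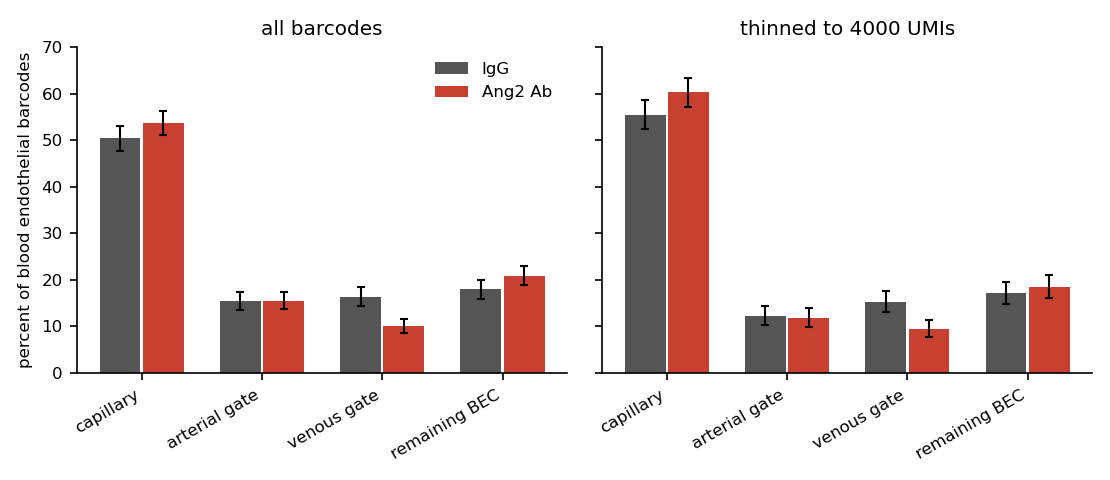
Share of BECs in each class, in percent, for the IgG (grey) and Ang2 Ab (red) libraries, with 95% exact binomial intervals. The left panel shows all BECs, and the right panel those with at least 4000 UMIs, thinned to 4000 UMIs. Capillary cells were the most frequent class in both libraries, and the venous class was at 16.3% (IgG) and 9.98% (Ang2 Ab) before thinning.

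At the edge of the rule stood 48 IgG and 42 Ang2 Ab cells with exactly 4 UMIs of the 5 genes, and 34 and 65 BECs with exactly 3, which were left out. Their *Rgcc* levels were 290 and 296 CPM just inside and 289 and 181 CPM just outside. *Lrat*, the retinol-esterifying enzyme, was 274 and 102 CPM just inside and 369 and 105 CPM just outside. *Rgcc* on both sides of the threshold lay below its level over all capillary cells. The cells at the edge were shallow, with median totals between 2080 and 3138 UMIs.

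Compared with the other BECs, 191 of 10456 genes with at least 100 UMIs (1.83%) were at least 2-fold higher in capillary cells in both libraries, and 463 (4.43%) were at least 2-fold lower. These values describe cells that were chosen on their own counts, so no test was made. Across 10442 genes the capillary profile (log2 of CPM + 1) correlated with that of the arterial gate at Pearson r = 0.921 (IgG) and 0.926 (Ang2 Ab), with the venous gate at 0.909 and 0.899, and with the remaining BECs at 0.912 and 0.904. These are correlations across genes of pooled cells from shared libraries. The arterial gate differed at least 2-fold from the capillary cells in 1001 genes of the IgG and 952 of the Ang2 Ab library, and the venous gate in 1085 and 1321.

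The genes highest in capillary cells relative to other BECs were ranked by the smaller of both libraries' ratios. *Lrrn1*, a leucine-rich repeat protein of the cell surface, was at 15.0 CPM in IgG and 24.3 CPM in Ang2 Ab capillary cells and 3.41 and 3.80 higher on the log2 scale than in other BECs. *Trp53i11*, a p53-inducible gene, was at 283.5 and 365 CPM (log2 difference 2.68 and 2.47) and was detected in 469 and 585 cells. *Nos2*, the inducible nitric oxide synthase, was at 48.5 and 73.4 CPM against 7.29 and 10.8 CPM in the arterial gate. *Slc28a2*, a concentrative nucleoside transporter, was at 59.8 and 74.3 CPM, 2.39 and 2.40 higher on the log2 scale. *Pgf*, the VEGFR1 ligand placental growth factor, was at 17.6 and 50.2 CPM (log2 difference 2.37 and 3.16). *Prnd*, encoding the prion-like protein doppel, was at 183.5 and 369.5 CPM (3.29 and 2.36). The thrombin receptor gene *F2rl3*, the imprinted gene *Mest* and the NADPH oxidase gene *Nox4* followed, with log2 differences between 2.19 and 2.74 over both libraries. After thinning to 4000 UMIs the smaller log2 difference was 0.08 for *Nox4* and 0.50 for *Pgf*, so neither was then past 2-fold. That for *F2rl3* was 1.27 after thinning, and by the mean of CPM over cells it was 1.25 for *Mest* and 1.35 for *Slc28a2*. The list also held the uncharacterized *2610203C22Rik*, *D830030K20Rik*, *Gm45716* and *A930028N01Rik*, at 5.77 to 37.1 CPM. By the mean of CPM over cells the first 3 of them were at 1.34, 1.12 and 1.27. *Hbb-bt*, a hemoglobin gene, met the rule at 633 and 250 CPM, but 87.8% and 81.9% of its UMIs came from a single cell in each library.

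One group was the basement membrane, the sheet of collagen IV, laminin, nidogen and perlecan on which capillaries rest. Of 16 measured genes, 7 were at least 2-fold higher in capillary cells in both libraries and 1 was lower, against 1.83% and 4.43% of all genes, with a median log2 difference of 0.75 (IgG) and 0.92 (Ang2 Ab) against -0.03 for all genes in both. *Col4a1*, a chain of collagen IV, stood at 4194 and 5209 CPM, against 1681 and 1896 CPM in the arterial and 768 and 845 CPM in the venous gate. *Nid2* (nidogen 2) was 1.80 and 1.56 higher and *Lamb1* (laminin β1) 1.94 and 1.39 higher on the log2 scale. By the mean of CPM over cells *Nid2* (0.85), *Lamb1* (0.90) and *Lama4* (0.62) were under 2-fold. *Hspg2*, encoding perlecan, was at 882.5 and 985 CPM (1.04 in both). The exception was *Mgp*, the matrix Gla protein of larger vessels, at 20.3 and 16.1 CPM in capillary cells against 1196 and 1257 CPM in the arterial gate. Of 4 measured mural markers 1, the pericyte gene *Rgs5*, was also at least 2-fold higher in capillary cells, and 1 was lower. What part mural RNA had in the basement membrane levels was not tested.

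Genes of the tip cell and angiogenesis list, those of cells that lead a sprout, were also counted, and *Nid2* and *Lamb1* belong to this list too. Of 15 measured genes, 7 were at least 2-fold higher in both libraries and 0 lower, against 1.83% and 4.43% of all genes. The medians were 0.98 and 1.04 on the log2 scale against -0.03 for all genes. For *Apln*, among the 7, the smaller log2 difference was 0.50 in cells with Y-linked UMIs alone and 0.998 after thinning. By the mean of CPM over cells *Apln* (0.90), *Nid2* (0.85) and *Lamb1* (0.90) were under 2-fold. *Esm1*, a secreted proteoglycan of tip cells, was at 88.0 and 184 CPM, 1.98 and 2.34 higher than in other BECs. *Kdr*, encoding VEGFR2, the main receptor for VEGF, belonged to the VEGF list and was at 828.5 and 827.5 CPM in capillary cells against 324 and 379 CPM in the arterial and 351 and 356 CPM in the venous gate. Of the 8 VEGF genes, 2 were higher (*Kdr* and *Pgf*) and 2 lower, the latter being *Vegfa* and *Vegfc*. The smaller log2 difference was 0.83 for *Kdr* by the mean of CPM over cells and 0.50 for *Pgf* after thinning, both under 2-fold. The VEGF-C gene was at 13.6 and 20.1 CPM in capillary cells and 229 and 242 CPM in the arterial gate.

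Of 19 measured lipid genes, 3 were at least 2-fold higher and 3 lower, against 1.83% and 4.43% of all genes. *Cd36*, a fatty acid translocase, was at 1628 and 1905 CPM (log2 difference 1.14 and 1.05), *Lpl*, encoding lipoprotein lipase, at 107 and 121 CPM (1.88 and 2.08), and *Mgll*, a monoacylglycerol lipase, at 963 and 1107 CPM (1.17 and 1.03). With at most 5% mitochondrial UMIs the smaller log2 difference was 0.82 for *Cd36* and 0.93 for *Mgll*, so neither was then past 2-fold. After thinning, *Lpl* was detected in 21.2% (IgG) and 21.45% (Ang2 Ab) of capillary cells. Its shares were 61.6% and 61.95% in the cells chosen by mural genes and 34.8% and 39.8% in *Col1a2*+ cells. *Cd36* and *Mgll* were detected more often in capillary cells than in either of these classes. What part RNA of other cells had in the capillary *Lpl* level was not tested. *Fabp4*, the cytosolic fatty acid-binding protein, was at 10015 and 9351 CPM in capillary cells but higher still in the venous gate, at 16036 and 12654 CPM. The lower genes included *Slc27a3*, a fatty acid transporter gene, at 19.4 and 12.1 CPM, 1.66 and 1.90 lower on the log2 scale. Among 14 genes for other transporters, 2 were higher and 1 lower, and *Aqp1*, a water channel, was at 1824 and 2287 CPM, between the arterial (247 and 451 CPM) and venous (3385 and 3934 CPM) gates.

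The genes lowest in capillary cells relative to other BECs were given by their UMIs. *Sulf1*, a heparan sulfate sulfatase, had 12 UMIs in IgG and 11 in Ang2 Ab capillary cells (1.87 and 1.64 CPM) and 437 and 402 UMIs in the other BECs, a ratio of 38.9 (95% exact interval 22.1 to 75.95) and 50.4 (27.8 to 102). *Nt5e*, the ecto-5′-nucleotidase CD73, had 6 and 4 UMIs against 234 and 244. *Cadm3*, a cell adhesion molecule, had 11 and 5 UMIs against 622 and 340. *Ptchd1* had 0 UMIs in both capillary pools, which allows up to 0.468 and 0.447 CPM at 3 counts per library, and was at least 18.2-fold (IgG) and 33.5-fold (Ang2 Ab) higher in other BECs. *Adgrg6*, *Lpcat2*, *Trpm6*, *Pcdh7*, *Masp1*, *Efna5*, *Emilin2* and *Pcsk5* also belonged to this list, with at most 11 UMIs in either capillary pool, and so did *Mgp*, described above, with 130 and 108 UMIs. *Pof1b* and *Dsg1a* met the rule too, but 95.6% and 100% of their UMIs in other Ang2 Ab BECs came from a single cell.

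Most arterial and venous markers outside the rule were at least 2-fold lower in capillary cells. Of 7 measured arterial markers 5 were at least 2-fold lower and 0 higher in capillary cells, against 4.43% and 1.83% of all genes, with medians of -2.21 and -3.02 on the log2 scale. *Efnb2*, the most abundant arterial marker in capillary cells, was at 206.5 and 192 CPM and *Gja4* (connexin 37) at 28.9 and 17.0 CPM. *Jag1*, an arterial Notch ligand that was not among these markers, was at 27.5 and 29.8 CPM. Of 7 venous markers 6 were lower and 0 higher, against the same shares of all genes, with medians of -2.03 and -2.20. *Nr2f2*, the venous transcription factor COUP-TFII, was at 62.0 and 46.8 CPM against 468 and 365 CPM in the venous gate. *Plvap*, the diaphragm protein of fenestrae and caveolae, was at 925.5 and 651 CPM in capillary cells, above the arterial (412 and 354.5 CPM) and below the venous (2433 and 2008 CPM) gate.

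Counts for the other lists stand beside 1.83% higher and 4.43% lower over all genes. Of 11 Notch genes 0 were higher and 3 lower, of 15 TGF-β, BMP and Wnt genes 0 and 3, of 22 endothelial transcription factors 0 and 2, of 13 junction genes 1 and 0, of 9 caveolar genes 0 and 1, of 11 hemostasis genes 1 and 3, of 10 leukocyte adhesion genes 0 and 2, of 12 vascular tone genes 2 and 3, and of 16 hypoxia and glycolysis genes 0 and 1. None of the 16 measured PI3K-Akt-FoxO genes or of the 16 MHC and interferon genes was at least 2-fold different in both libraries. Of 10 pan-endothelial genes 1 (*Kdr*) was higher. Flow response genes had 0 of 6 higher and 1 lower, immediate early and heat shock genes 0 of 13 and 1, proliferation genes 1 of 15 and 0, genes that the study names in LECs 1 of 9 and 1, and angiopoietin-Tie genes 0 of 4 and 0.

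To see how the capillary cells varied among themselves, they were divided within each library into 3 groups of near equal size by the share of their UMIs that came from the 5 choosing genes (236, 237 and 235 IgG cells and 270, 269 and 269 Ang2 Ab cells). *Fabp4* was at 5281, 11166 and 14915 CPM from the low to the high IgG group and at 5057, 9937 and 13888 CPM in the Ang2 Ab library. *Rgcc* was at 511, 923 and 1342 CPM in the IgG and 496, 852 and 1133 CPM in the Ang2 Ab groups. *Cd36* and *Lpl* had the same order in both libraries. The reverse order held for *Plvap*, at 1368, 779 and 507 CPM in the IgG and 890, 609 and 409 CPM in the Ang2 Ab groups, and for *Vwf*, the von Willebrand factor gene, at 345, 141 and 69.3 CPM and 225, 72.3 and 42.4 CPM. *Lrat* ran from 165 to 4.66 CPM in the IgG and from 72.9 to 1.95 CPM in the Ang2 Ab library, and *Apcdd1*, an inhibitor of Wnt signaling, from 79.7 to 4.14 CPM and from 48.2 to 3.41 CPM. *Fabp4*, *Rgcc* and *Cd36* were thus highest in the cells in which *Plvap*, *Vwf*, *Lrat* and *Apcdd1* were lowest. *Tek* was nearly level over the groups, at 203, 167 and 178 CPM (IgG) and 153, 156 and 148 CPM (Ang2 Ab). Median depth was 9104, 7944 and 7559 UMIs in the IgG and 8416, 6583 and 6809 UMIs in the Ang2 Ab groups. The grouping used the rule's own genes and the same cells' counts, so the order is a description and does not tell a continuous range from a mixture of cells.

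**Figure D3:**
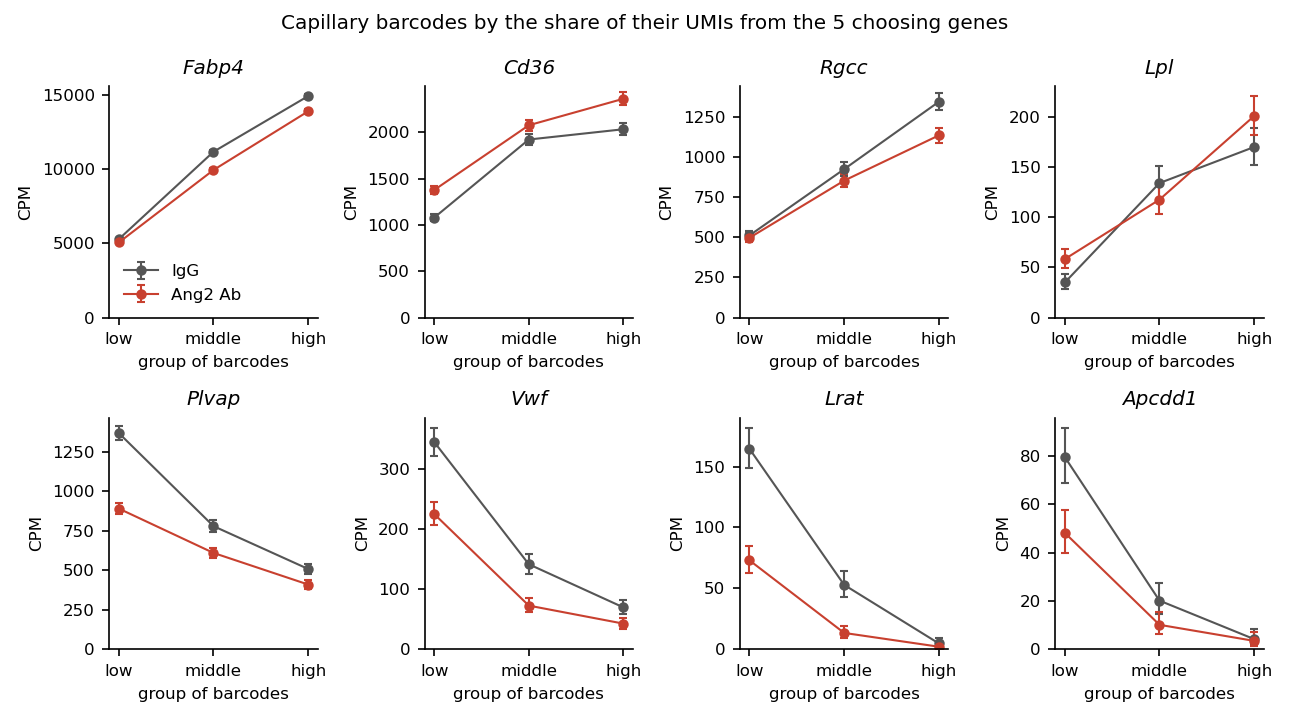
Level in CPM of 8 genes in the capillary cells of each library, divided into 3 groups by the share of UMIs from the 5 genes that chose the cells, with 95% exact Poisson intervals. *Fabp4*, *Cd36*, *Rgcc* and *Lpl* (top) were highest and *Plvap*, *Vwf*, *Lrat* and *Apcdd1* (bottom) lowest in the high group in both libraries.

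With Ang2 Ab, 153 of 9062 genes with at least 100 UMIs in capillary cells (1.69%) were at least 1.5-fold higher than with IgG, and 145 (1.6%) at least 1.5-fold lower. In the other BECs of the same libraries, 223 of 8988 genes (2.48%) were higher and 233 (2.59%) lower. Of genes measured in both, 109 were past the threshold upward in capillary cells and 168 in other BECs, and 35 were in both sets, which is 32.1% of the capillary and 20.8% of the other set. Downward, 26 genes were shared, 21.8% of 119 and 15.9% of 164. Among cells with *Xist* alone 95 genes were at least 1.5-fold higher and among cells with Y-linked UMIs alone 245 were. The minimum of 100 UMIs was applied anew within each group, so the number of genes tested differed and these counts are not shares of 9062.

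Angiogenesis genes were among those higher with Ang2 Ab. Of the 15 tip cell and angiogenesis genes, 4 (*Apln*, *Esm1*, *Cxcr4* and *Adm*) were at least 1.5-fold higher with Ang2 Ab and 0 lower, against 1.69% and 1.6% of all genes, with a median log2 ratio of 0.31 against 0.02 for all genes. The same list had a median of 0.49 in the other BECs.

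*Apln* encodes apelin, a peptide of sprouting endothelium, and lies at chrX:48025146-48034853 on the minus strand. Its level was 209 CPM in IgG and 517 CPM in Ang2 Ab capillary cells, a ratio of 2.47 (95% exact interval 2.32 to 2.64), with UMIs in 258 of 708 and 384 of 808 cells. No single cell held more than 4.25% of its UMIs. The ratio was 2.28 among cells with *Xist* alone and 2.53 among those with Y-linked UMIs alone. Thinned to 4000 UMIs, 30.4% of 585 IgG and 42.6% of 648 Ang2 Ab capillary cells held *Apln*, against 0.673% and 1.81% of *Prox1*+ cells. Where detected at that depth, it had a mean of 2.58 UMIs per cell with IgG and 4.32 with Ang2 Ab. Its receptor gene *Aplnr* was at 380 and 390 CPM, a ratio of 1.03 (0.9715 to 1.09).

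*Esm1* (chr13:113209659-113218098, plus strand) was at 88.0 CPM in IgG and 184 CPM in Ang2 Ab capillary cells, a ratio of 2.09 (1.89 to 2.31), and 2.54 and 1.99 within the *Xist* and Y-linked groups of cells. *Thbs1*, encoding the matricellular protein thrombospondin 1, was at 40.3 and 114 CPM (ratio 2.83, 2.45 to 3.27). At 4000 UMIs it was detected in 9.74% and 20.4% of capillary cells, 21.5% and 44.9% of *Prox1*+ cells and 33.5% and 27.3% of *Col1a2*+ cells, and the part of free RNA was not tested. *Pgf* was at 17.6 and 50.2 CPM (2.85, 2.30 to 3.56) but was seen in 22 and 63 cells only, and 23.9% of its IgG UMIs came from 1 cell. Its ratio was 4.18 among cells with *Xist* alone and 1.60 among cells with Y-linked UMIs alone. *Cxcr4*, the CXCL12 receptor, was at 65.7 and 116.5 CPM (1.77), with 1.16 in the *Xist* and 2.54 in the Y-linked cells. *Adm*, encoding adrenomedullin, was at 45.2 and 78.4 CPM (1.73), but its ratio was 1.24 after thinning and 1.43 among cells with *Xist* alone, both under 1.5-fold. *Prnd* was at 183.5 and 369.5 CPM (2.01, 1.88 to 2.16), with 2.42 in the *Xist* and 1.20 in the Y-linked cells, and its ratio in other BECs was 3.84. The further angiogenesis genes *Robo4*, *Pdgfb* and *Dll4* had ratios of 1.33, 1.24 and 1.16.

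**Figure D4:**
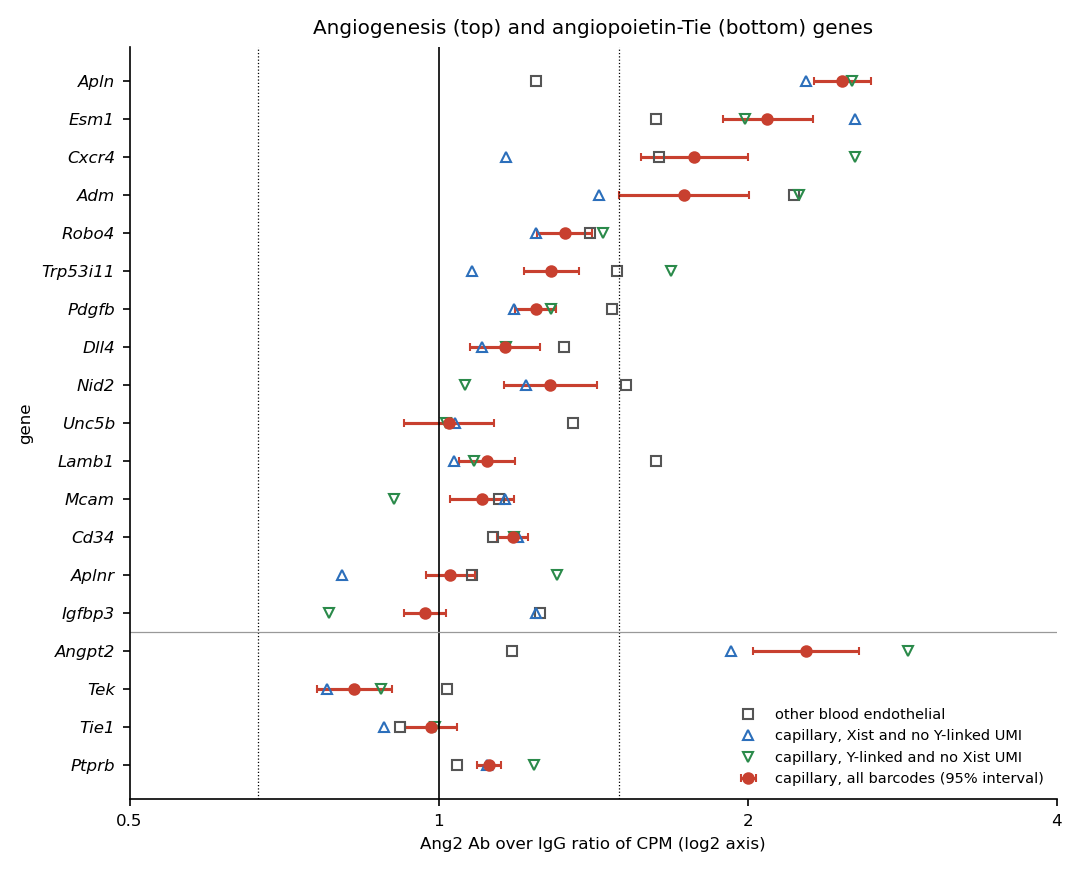
Ratio of Ang2 Ab to IgG CPM on a log2 axis for 15 angiogenesis genes and 4 angiopoietin-Tie genes. Filled circles show all capillary cells with 95% exact intervals, open squares the other BECs, and triangles the capillary cells with *Xist* alone (up) or Y-linked UMIs alone (down), and dotted lines mark 1.5-fold. *Apln*, *Esm1* and *Angpt2* lay beyond 1.5-fold in the whole capillary group and in both groups of cells by *Xist* and Y-linked UMIs.

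The 250 bases before the starts of *Apln* (chrX:48034854-48035103, minus strand) and *Esm1* (chr13:113209409-113209658, plus strand), the genes with the highest antibody ratios in the tip cell and angiogenesis list, are given from RefSeq on GRCm38.p6 in the same way. Capitals again mark GGAA or its complement TTCC, found at 3 positions in each. CANNTG was found at 3 positions upstream of *Apln* and 2 upstream of *Esm1*. GTAAACA, bound by FoxO factors, was in neither and is in 3.17% of all promoters, and the hypoxia element core ACGTG was in neither and is in 16.6%.
Apln: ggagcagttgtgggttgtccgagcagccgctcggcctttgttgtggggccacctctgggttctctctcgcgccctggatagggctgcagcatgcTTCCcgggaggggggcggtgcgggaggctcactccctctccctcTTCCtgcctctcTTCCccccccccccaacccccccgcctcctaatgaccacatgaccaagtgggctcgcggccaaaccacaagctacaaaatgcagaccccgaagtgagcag
Esm1: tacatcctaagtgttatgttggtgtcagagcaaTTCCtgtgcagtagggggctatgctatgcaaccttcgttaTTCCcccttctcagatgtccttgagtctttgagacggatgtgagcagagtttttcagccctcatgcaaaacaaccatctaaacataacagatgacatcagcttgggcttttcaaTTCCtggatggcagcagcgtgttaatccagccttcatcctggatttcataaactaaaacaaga

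*Angpt2*, the gene of the blocked protein (chr8:18690263-18741562, minus strand), was at 61.3 CPM in IgG and 140 CPM in Ang2 Ab capillary cells, a ratio of 2.28 (2.02 to 2.57). It was 1.93 and 2.87 within the *Xist* and Y-linked cells. In IgG cells it was 0.15 lower and in Ang2 Ab cells 0.80 higher than in other BECs on the log2 scale, where its own ratio was 1.18 (1.03 to 1.36). Thinned to 4000 UMIs, it was detected in 16.1% (13.2 to 19.3%) of IgG and 29.5% (26.0 to 33.2%) of Ang2 Ab capillary cells. In *Prox1*+ cells of the same libraries *Angpt2* was at 137 and 871 CPM. In *Col1a2*+ cells it was at 41.1 and 62.8 CPM with detection in 16.1% and 23.3% at the same depth. Mural markers in those cells summed to 5123 and 8246 CPM. In cells with at least 5 UMIs of the mural genes *Angpt2* was detected in 31.4% and 38.05%. The IgG share in capillary cells was thus no higher than in *Col1a2*+ cells, and how far free RNA contributed to the capillary counts was not tested.

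The receptors were below 1.5-fold. *Tie1* was at 366 and 360 CPM, a ratio of 0.983 (0.928 to 1.04). *Tek*, encoding Tie2, was at 184 and 153 CPM, a ratio of 0.828 (0.7605 to 0.901), and was 0.48 and 0.78 lower than in other BECs on the log2 scale. *Ptprb*, the phosphatase VE-PTP that acts on Tie2, was at 1470 and 1647 CPM (1.12). *Angpt1* and *Angpt4*, the other ligands, had at most 0.298 CPM in capillary cells. Of the 4 measured angiopoietin-Tie genes, 1 (*Angpt2*) was past 1.5-fold, and of 16 PI3K-Akt-FoxO genes 0 were, against 1.69% higher and 1.6% lower over all genes, with *Foxo1* at 107 and 125 CPM (1.16). *Kdr* had a ratio of 0.999 (0.962 to 1.04).

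These genes were also counted in the other classes. In the arterial gate *Apln* was at 7.77 CPM with IgG and 110 CPM with Ang2 Ab, a ratio of 14.1 (8.50 to 25.1). In the venous gate it was at 169 and 93.4 CPM, a ratio of 0.551 (0.458 to 0.660). Thinned to 4000 UMIs, *Apln* was detected in 2.825% and 8.42% of arterial-gate cells and in 27.8% and 15.4% of venous-gate cells. *Angpt2* was 3.13-fold (1.93 to 5.24) higher with Ang2 Ab in the arterial gate and its ratio was 0.678 (0.548 to 0.833) in the venous gate. At 4000 UMIs per cell, however, *Angpt2* was detected in 17.1% of IgG and 22.1% of Ang2 Ab cells of the venous gate, the opposite direction. For *Esm1* the ratio was 1.12 (0.825 to 1.52) in the arterial gate, against 2.09 in capillary cells. In the remaining BECs the ratios were 2.15 (1.69 to 2.76) for *Apln*, 2.99 (2.21 to 4.11) for *Angpt2* and 2.29 (1.45 to 3.70) for *Esm1*. Whether the ratios differed between classes was not tested, since each class came from the same 2 libraries.

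**Figure D5:**
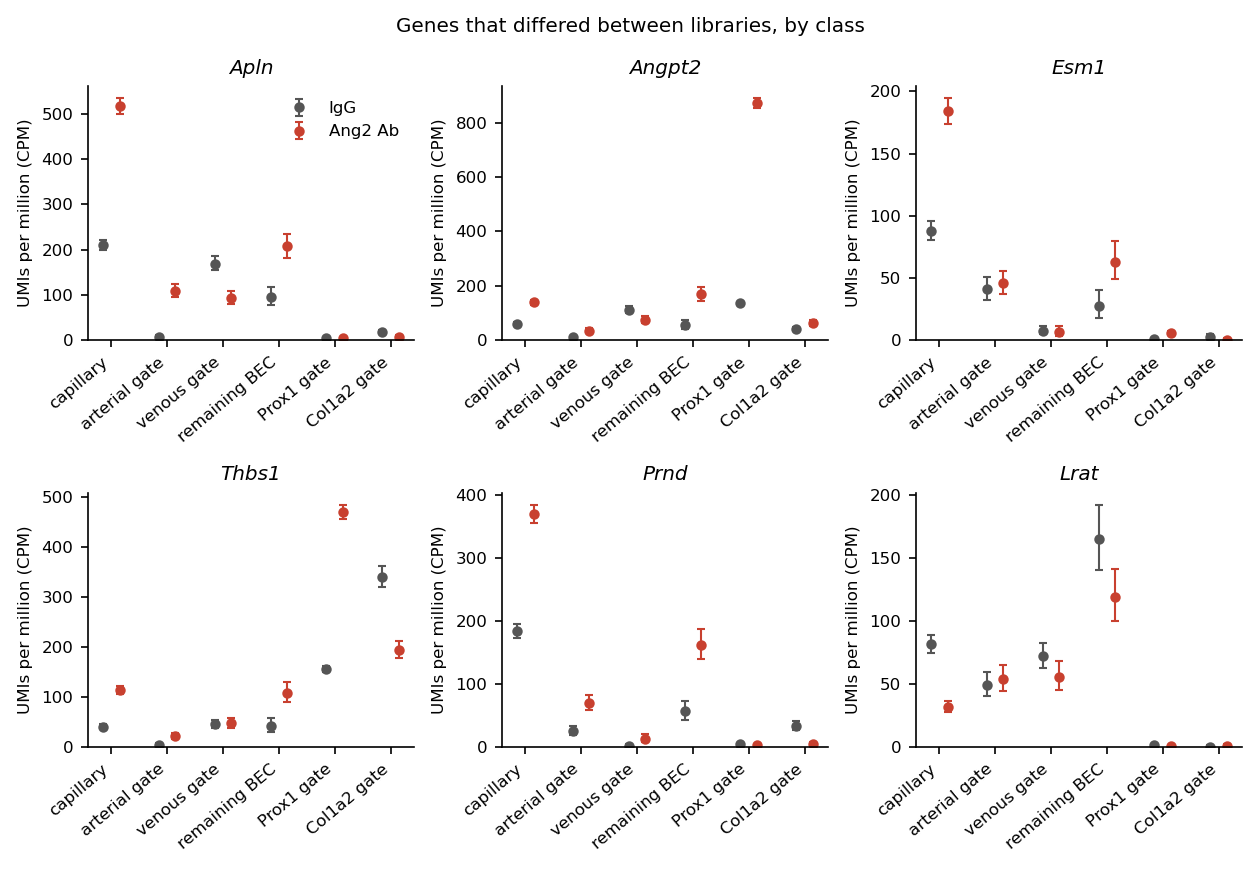
Level in CPM of *Apln*, *Angpt2*, *Esm1*, *Thbs1*, *Prnd* and *Lrat* in 6 classes of cells of the IgG (grey) and Ang2 Ab (red) libraries, with 95% exact Poisson intervals. In capillary cells the first 5 were higher and *Lrat* was lower with Ang2 Ab, and the venous gate had lower *Apln* with Ang2 Ab. Its *Angpt2* CPM was lower too, while the share of its cells with *Angpt2* at 4000 UMIs was higher (17.1% and 22.1%).

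Detection of several angiogenesis genes in the same capillary cell was counted, and each gene alone was also detected more often in the Ang2 Ab library. At 4000 UMIs per cell, *Apln* was found in 36 of 38 (94.7%) Ang2 Ab capillary cells with *Pgf* and in 39.3% of those without. In the IgG library it was found in 10 of 14 and 29.4%. The 14 IgG cells with *Pgf* had lower shares with *Esm1* (7.14% against 18.7%), *Angpt2* (14.3% against 16.1%) and *Trp53i11* (50% against 53.4%). Their share with *Nox4* was higher (14.3% against 1.93%). In the Ang2 Ab library each of these shares was higher with *Pgf*. *Esm1* was found in 36.2% of *Apln*+ and 19.1% of *Apln*- Ang2 Ab cells, and in 18.0% and 18.7% in the IgG library. *Angpt2* was found in 43.5% of *Apln*+ and 19.1% of *Apln*- Ang2 Ab cells, and in 25.3% and 12.04% in the IgG library. Of *Apln*, *Esm1*, *Pgf*, *Angpt2*, *Trp53i11* and *Nox4*, exactly 4 were detected in 11 of 585 IgG cells and 52 of 648 Ang2 Ab cells, and exactly 5 in 2 and 13. Cells are not replicates, and these shares have no test.

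*Lrat*, *Vwf* and *Apcdd1*, highest in the low group of cells, were lower with Ang2 Ab. *Lrat* (chr3:82892579-82903973, minus strand) was at 81.6 CPM in IgG and 31.8 CPM in Ang2 Ab capillary cells, a ratio of 0.389 (0.330 to 0.457), and 0.291 and 0.523 in the *Xist* and Y-linked cells. In other BECs its ratio was 0.881 (0.765 to 1.02). *Lrg1*, a secreted glycoprotein of venous endothelium, was at 67.4 and 30.1 CPM (0.447), and *Vwf* at 198.5 and 119 CPM (0.601, but 0.718 after thinning, which is not past 1.5-fold). *Slc6a6*, a taurine transporter, was at 261 and 159 CPM (0.611, with 0.443 among cells with *Xist* alone and 0.822 among cells with Y-linked UMIs alone), and *Apcdd1* at 38.4 and 22.1 CPM (0.575). *Plvap* did not reach the threshold, with a ratio of 0.703 (0.676 to 0.732) and nearly the same ratio of 0.711 in other BECs. Within the 3 groups of cells, *Lrat* was at 165 and 72.9 CPM, 52.8 and 13.3 CPM, and 4.66 and 1.95 CPM, and in the last group, with 9 and 4 UMIs, the counting intervals overlapped.

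*Il6*, the cytokine interleukin 6, was at 25.1 and 5.97 CPM, a ratio of 0.237, and was lower in other BECs too (0.347). The ratio was 0.392 among cells with *Xist* alone and 0.0514 among cells with Y-linked UMIs alone. *Tacr1*, the receptor of substance P, was at 12.8 and 2.98 CPM (0.233). Over the alternatives its ratio ran from 0.113 with at least 6 UMIs of the choosing genes to 0.4645 after thinning. At 4000 UMIs per cell *Tacr1* was detected in 18 IgG and 8 Ang2 Ab capillary cells (3.08% and 1.235%). It was detected in 31.7% and 31.6% of venous-gate cells. *Srarp*, *Slc14a1* (a urea transporter), *Mt1* (metallothionein 1) and *Egr2* (an immediate early transcription factor) had ratios between 0.310 and 0.386. The *Slc14a1* ratio was 0.206 among cells with Y-linked UMIs alone and 0.619 after thinning. After thinning to 4000 UMIs *Mt1* was at 0.832 and *Egr2* at 0.774, neither past 1.5-fold, and *Egr2* was at 0.657 among cells with *Xist* alone and 0.184 among cells with Y-linked UMIs alone. *Cyp26b1*, which degrades retinoic acid, was at 25.9 and 4.47 CPM, a ratio of 0.173, but the ratio was 0.0374 among cells with *Xist* alone and 5.86 among cells with Y-linked UMIs alone, so its direction depended on which cells were counted. At 4000 UMIs per cell it was detected in 5.47% and 1.39% of capillary and 18.6% and 11.9% of *Col1a2*+ cells. *Mt1* was detected in 5.98% and 3.395% of capillary and 42.9% and 57.4% of *Col1a2*+ cells. What part RNA of other cells had in these ratios was not tested. Among the higher genes named by the rule, *Mfap3l*, *Adam12* (a disintegrin metalloproteinase), *Abca8b* (a lipid transporter) and the uncharacterized *F730043M19Rik* and *Gm21860* had ratios between 2.43 and 3.12. For *Gm21860* the ratio was 4.76 among cells with *Xist* alone and 1.16 among cells with Y-linked UMIs alone, the latter under 1.5-fold.

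Several of the largest ratios rested on 1 cell. In the IgG library 1 capillary cell held between 75 and 89% of the UMIs of *Krt14*, *Krt15*, *Krt5*, *Fxyd3* and *Lgals7*, genes of keratinocytes, and in the Ang2 Ab library 1 cell held 96.4% of *Defb6* and 94.1% of *Cst6*. The histone genes *Hist1h2ae* and *Hist1h2ap* had 47.0% and 55.8% of their Ang2 Ab UMIs in 1 cell. Their ratios were 5.93 and 7.75 among cells with *Xist* alone and 1.65 and 1.24 among cells with Y-linked UMIs alone, the last under 1.5-fold. Keratinocyte markers summed to 59.0 CPM in IgG and 13.7 CPM in Ang2 Ab capillary cells, with all 5 markers detected in both and *Krt14* (19.0 CPM) and *Krt10* (6.71 CPM) the most abundant. A UMI of them was found in 12.3% and 10.0% of capillary cells, and 65.9% of the IgG UMIs lay in 1 cell. All 4 measured keratinocyte genes were at least 1.5-fold lower with Ang2 Ab (1.6% of all genes) and at least 2-fold lower in capillary cells than in other BECs (4.43% of all genes). Among cells with Y-linked UMIs alone, however, the antibody ratio was 1.85 for *Krt14* and 2.16 for *Krt5*. In other BECs the markers summed to 327 (IgG) and 567 CPM (Ang2 Ab), and how they spread over cells was not tested.

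RNA of markers of other cell types was also counted. Erythroid and platelet markers summed to 3003 and 1633 CPM, led by *Hbb-bs* at 1996 and 1186 CPM, and 78.6% and 76.4% of those UMIs lay in 1 cell of each library. Immune markers summed to 8.12 and 3.88 CPM with *Ptprc* and *Cd3e* at 0 in both. Adipocyte markers summed to 2.65 and 0.298 CPM with *Adipoq*, *Plin1* and *Lep* at 0, and Schwann cell and melanocyte markers to 6.40 and 3.73 CPM with *Mlana* at 0. Fibroblast markers summed to 91.8 and 63.8 CPM, led by *Col3a1*, and lymphatic markers to 246 and 238 CPM, led by *Ccl21a*. Mural markers summed to 557 and 592 CPM although the rule limited *Pdgfrb*, *Kcnj8* and *Vtn* to 1 UMI. The most abundant were *Rgs5* with IgG and *Tagln* with Ang2 Ab. *Rgs5*, a pericyte gene, was at 295 and 272 CPM, 1.94 and 1.72 higher on the log2 scale than in other BECs. Its antibody ratio was 0.557 in the *Xist* and 1.77 in the Y-linked cells. With Ang2 Ab, 1 of 7 lymphatic (*Lyve1*) and 1 of 4 mural markers (*Acta2*) were at least 1.5-fold higher, and 1 of 2 fibroblast and 2 of 2 erythroid and platelet markers were lower, against 1.69% higher and 1.6% lower over all genes. What part such RNA had in the ratios above was not tested.

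Counts past 1.5-fold with Ang2 Ab in the other lists stand beside 1.69% higher and 1.6% lower over all genes. No basement membrane gene of 16 was past it (median log2 ratio 0.16), nor any of 22 transcription factors, 13 junction genes, 9 caveolar genes, 6 flow response genes, 10 Notch genes, 14 hypoxia and glycolysis genes, 8 leukocyte adhesion genes or 16 MHC and interferon genes (median -0.22). *Col4a1* had a ratio of 1.24 and *Cldn5*, encoding the tight junction protein claudin 5, one of 1.42, at 489 and 696 CPM. Of 7 measured VEGF genes 1 (*Pgf*) was higher, of 12 transporter genes 2 higher (*Slc1a1* and *Slc7a5*) and 2 lower (*Slco2a1* and *Slc6a6*), of 18 lipid genes 0 higher and 1 lower (*Slc27a3*), of 14 genes of the TGF-β, BMP and Wnt list 1 higher (*Bmp6*) and 2 lower (*Apcdd1* and *Lrat*, the latter a retinol enzyme that the list also held), of 10 hemostasis genes 1 higher (*F2r*) and 1 lower (*Vwf*), of 12 vascular tone genes 1 higher (*Kcnj2*), and of 9 genes that the study names in LECs 2 higher (*Angpt2* and *Lyve1*, the latter with 38.5% of its Ang2 Ab UMIs in 1 cell and a ratio of 0.396 among cells with *Xist* alone). Several of these calls ended under an alternative. After thinning the ratio was 1.24 for *Slc7a5*, 1.36 for *Slc1a1*, 0.970 for *Slco2a1*, 1.38 for *Bmp6*, 1.45 for *F2r* and 1.47 for *Kcnj2*. Arterial markers had 3 of 7 lower, among them *Gja4* and *Stmn2*, and venous markers 2 of 6 lower. Among cells with Y-linked UMIs alone *Gja4* was at 0.763 and *Stmn2* at 0.964, neither past 1.5-fold. Immediate early and heat shock genes had 1 of 13 lower (*Atf3*), with a median log2 ratio of -0.34 in capillary cells and -0.26 in other BECs.

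Few capillary cells held RNA of cell division genes. At least 2 UMIs over *Mki67* and *Top2a*, a cell cycle antigen and a topoisomerase, were found in 11 of 708 IgG (1.55%, 0.778 to 2.76%) and 18 of 808 Ang2 Ab cells (2.23%, 1.33 to 3.498%), with 3.30% and 1.44% in the other BECs. Thinned to 4000 UMIs, any UMI of either gene was found in 2.91% and 2.47% of capillary cells. Of 15 proliferation genes, 2 were at least 1.5-fold higher and 1 lower with Ang2 Ab, against 1.69% and 1.6% of all genes. The higher genes were *Cenpf* and *Rrm2* and the lower was *Ube2c*, and the list median was -0.22 in capillary cells and -0.30 in other BECs on the log2 scale.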

How the data were processed

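The libraries were made from CD31-sorted cells of mouse ear skin. The authors deposited 10x matrices of UMI counts per gene and barcode, which are whole numbers and not normalized. The submitters' processing notes name Cell Ranger 2.1.1 and the genome build GRCm38 (mm10), while the matrix headers name Cell Ranger 6.0.2. The 2 wild-type libraries with IgG or Ang2 Ab were used of 10 samples, and 0 columns belonged to another series.

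Cells were chosen by the UMI limits given in the report, and comparison classes by at least 2 UMIs of *Prox1*, 5 of the mural genes or 5 of *Col1a2*. The *Prox1* class allowed at most 1 UMI of *Flt1*. The mural and *Col1a2* classes allowed no UMI of *Flt1* or *Prox1* and could share cells. The members and the 33 gene lists (346 genes) were chosen with earlier results of these data known. No doublet caller was run. The limits on genes of other cell types remove part of the doublets, and an alternative left out the 5% of cells with most UMIs. UMIs were summed per class and library and scaled to the class total as CPM. Log2 differences between capillary cells and other BECs used a prior count of 0.5, and a count of 0 was taken as up to 3 counts. Intervals were exact Poisson or Clopper-Pearson intervals at 95%. Genes needed at least 100 UMIs. Cells with at least 4000 UMIs were thinned to 4000 with a fixed seed, which left out 123 IgG and 160 Ang2 Ab capillary cells and 192 and 235 remaining BECs. With 1 library per treatment no test was possible.

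Named genes were the markers and choosing genes, the 15 highest and 15 lowest by the smaller log2 ratio of both libraries, the 12 highest and 12 lowest antibody ratios without *Xist* and Y-linked genes, and the members of the lists with the highest levels or differences. A gene symbol shared by several rows (38 symbols) was kept apart by its identifier. Sums and intervals were computed with scipy 1.17.1 and pandas 2.3.3 under Python 3.11.15, plots were drawn with matplotlib 3.10.9, and the scripts were tested on simulated data.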

Additional observations from a re-analysis of the deposited data

Results flagged for a closer look

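*Xist* was detected in 59.0% of IgG and 42.2% of Ang2 Ab capillary cells, although both libraries were labelled male. The antibody comparison does not measure it, and the report uses it only to divide the cells.

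Of genes past 1.5-fold in capillary cells, 5 of those higher and 6 of those lower were past 1.5-fold the other way in other BECs. Of these, 4 named genes are given here, and the differences were not tested. *Cst6* had a ratio of 10.6 in capillary cells and 0.0465 in other BECs, *Hist1h2ae* 3.41 and 0.145, *Hist1h2ap* 3.18 and 0.144, and *Lgals7* 0.286 and 1.82. In each of them 1 capillary cell held 47.0% or more of the UMIs of a library.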

How the results depend on the processing

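There were 14 alternative settings, 12 planned and 2 chosen after seeing the data (without the highest cell of each gene, and without cells holding at least 5 hemoglobin or keratin UMIs). The capillary share of Ang2 Ab BECs, 53.8%, was 58.4% with a higher minimum of genes per cell, 60.5% with at most 5% mitochondrial UMIs, 56.6% among cells with *Xist* alone, 58.1% and 48.3% with at least 3 or 6 UMIs of the choosing genes, and 60.3% after thinning. The IgG share, 50.4%, was 54.1% with the higher minimum of genes, 56.4% with at most 5% mitochondrial UMIs, 45.4% with at least 6 UMIs and 55.4% after thinning. The 153 genes higher with Ang2 Ab numbered 55 and 260 with at least 300 or 50 UMIs, 95 and 245 among cells with *Xist* or Y-linked UMIs alone, and 81 after thinning. The 145 lower genes numbered 47 and 295 with at least 300 or 50 UMIs and 79 after thinning. The 191 genes higher in capillary cells numbered 115 by the mean of CPM over cells, and the 463 lower ones 284 with at least 300 UMIs, 278 among cells with Y-linked UMIs alone and 260 after thinning. Settings that changed the cells, their UMIs or the UMI minimum also changed the number of genes tested, so these counts do not share a total. A stricter UMI minimum or thinning leaves fewer genes to count, and other causes were not tested.

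Of 1124 single-gene values 14 reversed, in 5 genes. *Cst6* (10.6) was 0.613 with at most 5% mitochondrial UMIs, 0.492 and 0.617 with *Xist* or Y-linked UMIs alone, 0.743 after thinning and 0.698 without its highest cell. *Cyp26b1* was 5.86, *Krt14* 1.85 and *Krt5* 2.16 with Y-linked UMIs alone. *Lgals7* (0.286) was 1.10 with at most 5% mitochondrial UMIs, 1.24 with Y-linked UMIs alone, 1.53 by the mean of CPM, 2.78 without hemoglobin or keratin cells, 2.65 without the 5% of cells with most UMIs and 1.08 without its highest cell. *Apln* ranged from 2.28 to 2.53, *Angpt2* from 1.93 to 2.87, *Esm1* from 1.61 to 2.54, *Thbs1* from 2.67 to 3.27 and *Lrat* from 0.290 to 0.523, past 1.5-fold under each of the 12 alternatives in which they had a value. *Prnd* ranged from 1.20 to 2.42, *Cxcr4* from 1.16 to 2.54, *Adm* from 1.24 to 2.24 and *Vwf* from 0.549 to 0.718, each past 1.5-fold in 10 or 11 of 12. By the mean of CPM over cells the smaller log2 capillary difference was 0.83 for *Kdr* and 0.90 for *Lamb1* and *Apln*. By the same measure it was 0.85 for *Nid2* and 0.62 for *Lama4*. After thinning it was 0.83 for *A930028N01Rik* and 0.998 for *Apln*, and among cells with Y-linked UMIs alone 0.50 for *Apln*. All of these were under 2-fold. No paired analysis was possible because each treatment had 1 library, and for the same reason no replicate could be left out.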
